A study of Homo sapiens with 18 samples.

Results

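The 10 genes described here encode proteins that give the nucleus its shape and order its chromatin. They are the lamins LMNA, LMNB1 and LMNB2, the lamina-associated proteins LBR and TMPO, and the high mobility group (HMG) proteins HMGB1, HMGB2, HMGB3, HMGA1 and HMGA2. They were taken by name from a count table of 20705 genes, to ask whether the loss of LMNB1 and HMGB2 that is typical of senescent cells appeared by 6 days of CDK4/6 inhibition. All 10 were found. In A375 all 10 reached 1 CPM (a gene's counts divided by the TMM-scaled total of its library) in every library, whereas in CHL1 9 did and HMGA2 had 0 to 3 counts per library.

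Lamins assemble into a meshwork under the inner nuclear membrane. The B-type lamins, from LMNB1 and LMNB2, stay attached to the membrane by a lipid anchor, and LMNA encodes the A-type lamins A and C. LBR, the lamin B receptor, and TMPO, which encodes the LAP2 proteins, hold heterochromatin against this meshwork. HMGB proteins bend DNA, and HMGA proteins bind its AT-rich stretches. In many senescent cells LMNB1 is lost, HMGB2 falls early, HMGB1 leaves the nucleus, and HMGA proteins gather in condensed heterochromatin foci. Several of these genes are also expressed most when cells divide, so their loss does not by itself tell senescence from arrest.

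CHL1 (BRAF and NRAS wild type, p53 mutant) and A375 (BRAF mutant, p53 wild type) are established human melanoma cell lines, both labelled WT for genotype, with no engineered allele named. CHL1 was grown in DMEM and A375 in RPMI-1640. Cells of each line received DMSO as control, 1 μM palbociclib, an inhibitor of the cell cycle kinases CDK4 and CDK6 (CDK4/6i), or 500 nM GSK3326595, an inhibitor of the arginine methyltransferase PRMT5 (PRMT5i), for 72 hours. Palbociclib was also given for 6 days, with a 6-day DMSO control in A375 only, so that the 6-day CHL1 cells were compared with the 72-hour control, and there were 9 groups of 2 libraries each.

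Poly-A RNA was sequenced, and each library held 16213475 to 37424081 counts and 19390 to 20358 detected genes. The labels do not say that replicates came from separate cultures, so p-values measure only the spread between these libraries. Replicates of every group differed by more than sampling noise, with chi-square values of 6.96 to 110 per degree of freedom. Both CHL1 PRMT5i libraries and both 6-day A375 controls stood apart from the rest: their GC-rich genes were low relative to GC-poor genes, with a log2 difference between the richest and the poorest decile of genes of -2.48 and -1.97 in the former and -2.27 and -1.12 in the latter, whereas the other libraries lay between -0.18 and 0.50. Members' tests that rest on these libraries are also given after a correction for GC content, while family shares, gene lists and the genes named from them are uncorrected. The CHL1 and the 6-day A375 libraries carry names from 1 library set and the 72-hour A375 libraries from another, so time and set cannot be told apart when A375 levels at 72 hours and 6 days are set side by side. Of 8 melanocytic markers, 6 were in the table, with a summed level of 143 to 268 CPM in CHL1 and 121 to 271 CPM in A375. MITF was present in every library (59.0 to 135 CPM in CHL1, 85.0 to 218 CPM in A375), while TYR had at most 0.0674 CPM in CHL1 and 5.17 CPM in A375. Markers of keratinocytes, fibroblasts, endothelium and leukocytes summed to at most 60.5, 58.2, 2.97 and 16.2 CPM in any library.

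Promoters of some of the genes are shown first. RefSeq promoter sequences (build GRCh38.p14) were matched for 8 of the 10 genes, and 250 bases before the annotated start were searched on both strands for 3 elements known from cell cycle promoters: E2F sites (TTTCCCGC, TTTGGCGC, TTTCGCGC or TTTGCCGC), the CHR element (TTTGAA) and the CCAAT box (CCAAT). None of these motifs contains another. Below are the 150 bases before the start of LMNB1, TMPO and HMGB1, which were lower in palbociclib-treated A375 at both times, and of LMNA, which was not called in any palbociclib comparison. Capitals mark matches.
LMNB1 (chr5:126776473-126776622, plus strand): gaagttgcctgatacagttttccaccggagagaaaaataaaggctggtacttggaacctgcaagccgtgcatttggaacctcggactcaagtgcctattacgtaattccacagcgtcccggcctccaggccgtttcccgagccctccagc
TMPO (chr12:98515423-98515572, plus strand): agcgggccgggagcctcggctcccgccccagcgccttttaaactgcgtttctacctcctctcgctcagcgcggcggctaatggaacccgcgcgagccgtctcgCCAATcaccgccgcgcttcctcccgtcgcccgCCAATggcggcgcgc
HMGB1 (chr13:30465937-30466086, minus strand): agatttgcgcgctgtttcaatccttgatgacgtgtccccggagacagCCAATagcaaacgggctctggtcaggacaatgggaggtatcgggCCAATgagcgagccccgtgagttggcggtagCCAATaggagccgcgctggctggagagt
LMNA (chr1:156082423-156082572, plus strand): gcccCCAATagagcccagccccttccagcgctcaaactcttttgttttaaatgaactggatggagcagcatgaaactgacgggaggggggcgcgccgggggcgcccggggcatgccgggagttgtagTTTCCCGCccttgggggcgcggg
Of the 8 promoters, 4 held a CCAAT box (9 matches in all, 3 each in HMGB1 and HMGB3, 2 in TMPO and 1 in LMNA), against 33% of 27305 promoters of the same length. The CHR element was found in LMNB2 and HMGB3, and in 13.6% of all promoters. The only E2F match lay in LMNA, 23 to 16 bases before the start, and 2.79% of all promoters held one. Only the first listed start of each gene was searched, so matches before other starts of a gene would be missed. None of these letters occurred in the windows of LMNB1, LBR and HMGA1.

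LMNB1 and HMGB2 were both lower after 6 days of palbociclib in both cell lines. In CHL1 each fell 2.14-fold against the 72-hour control, and in A375 LMNB1 fell 4.55-fold and HMGB2 6.95-fold against the 6-day control. In A375 both had already fallen by 72 hours, and in CHL1 HMGB2 had. These were edgeR quasi-likelihood tests with Benjamini-Hochberg adjustment over all 20705 genes, a call being an adjusted p below 0.05.

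LMNB1 (chr5:126112315-126172712 in GRCh37, plus strand), the B-type lamin whose loss marks senescence, was read at 352 and 348 CPM in the CHL1 controls, 241 and 248 CPM after 72 hours of palbociclib, and 207 and 121 CPM after 6 days. The treated libraries all lay below the controls, and the 6-day libraries were the lowest but also the most spread. The log2 fold change was -0.52 ± 0.21 (SE) at 72 hours (adjusted p = 0.192) and -1.10 ± 0.21 at 6 days (adjusted p = 0.00608). The 6-day call was lost without control replicate 2 (log2 fold change -1.11, adjusted p = 0.0551). In A375, LMNB1 stood at 249 and 300 CPM in the 72-hour controls and at 54.3 and 60.4 CPM after 72 hours of palbociclib. At 6 days the controls had 247 and 228 CPM, and the treated libraries 54.8 and 49.5 CPM. Control and treated values were far apart at both times and nearly the same between times. The log2 fold changes were -2.26 ± 0.18 at 72 hours (adjusted p = 9.09e-06) and -2.19 ± 0.18 at 6 days (adjusted p = 2.69e-06), and LMNB1 remained called without any 1 library.

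HMGB2 (chr4:174252527-174255583 in GRCh37, minus strand), an HMG-box protein abundant in dividing cells, had 109 and 82.2 CPM in the CHL1 controls. It had 44 and 40.1 CPM after 72 hours of palbociclib and 50.8 and 38.6 CPM after 6 days. Both treated groups lay below the controls and overlapped each other. The log2 fold changes were -1.19 ± 0.20 (adjusted p = 0.00701) and -1.10 ± 0.20 (adjusted p = 0.00391), and the 6-day call was lost without control replicate 1 (-0.88, adjusted p = 0.0523). The 72-hour call was lost without control replicate 1 or either treated library (-1.26 to -0.97, adjusted p from 0.0688 to 0.104). In A375 the 72-hour controls had 53.9 and 73.5 CPM, against 13 and 17.2 CPM in the treated libraries. The 6-day controls had 75.0 and 64.0 CPM, against 11.3 and 8.71 CPM. The groups did not overlap at either time, and the log2 fold changes were -2.08 ± 0.22 (adjusted p = 3.48e-05) and -2.80 ± 0.23 (adjusted p = 2.41e-06).

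**Figure D1:**
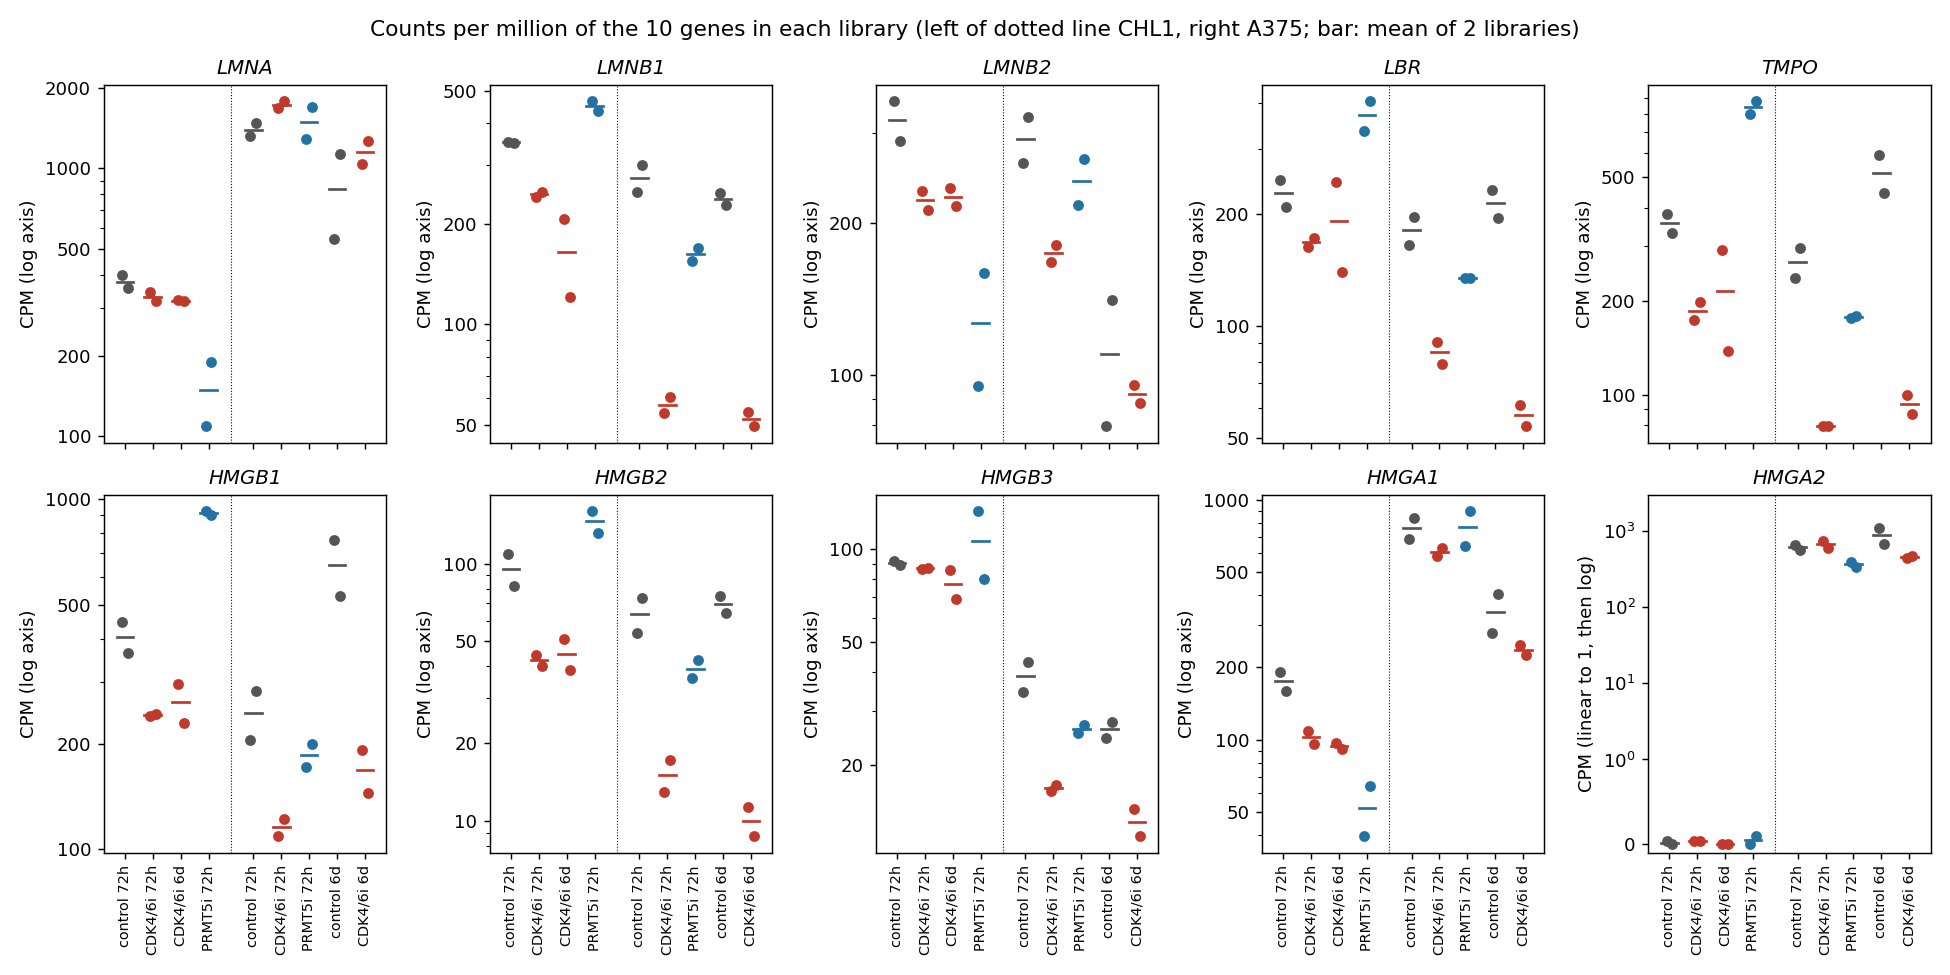
CPM of each of the 10 genes in every library, with 1 panel per gene, a log axis (for HMGA2 linear up to 1 CPM, then log), points for the 18 libraries and bars for the means of 2; CHL1 is left of the dotted line and A375 right of it, with controls in grey, CDK4/6i in red and PRMT5i in blue. The palbociclib libraries of A375 lie lowest for LMNB1 (49.5 to 60.4 CPM) and HMGB2 (8.71 to 17.2 CPM), and HMGA2 is near 0 in all CHL1 libraries.

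The further B-type lamin, LMNB2 (chr19:2427636-2456957, minus strand), was called lower in 1 of the 4 palbociclib comparisons. In CHL1 it had 347 and 290 CPM in controls, 231 and 212 CPM at 72 hours and 234 and 216 CPM at 6 days of palbociclib, lower in all 4 treated libraries but not called (log2 fold changes -0.52 and -0.50, adjusted p = 0.197 and 0.138). In A375 it fell at 72 hours from 262 and 323 CPM to 167 and 181 CPM (-0.75 ± 0.24, adjusted p = 0.0467), a call that was lost without any 1 of the 4 libraries (adjusted p from 0.0954 to 0.306). At 6 days the groups overlapped, with 79.4 and 141 CPM in controls and 95.8 and 88.3 CPM after treatment (-0.26 ± 0.23, adjusted p = 0.389). That 6-day value was -0.79 after GC correction (adjusted p = 0.00188) and 0.21 without control replicate 2 (adjusted p = 0.307).

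LMNA (chr1:156052364-156109872, plus strand), the A-type lamin gene, was not called in any palbociclib comparison by this test on all libraries. It was called lower in CHL1 at 6 days after GC correction (-0.44, adjusted p = 0.0166). Its levels in CHL1 were 399 and 357 CPM in controls, 346 and 319 CPM at 72 hours and 322 and 319 CPM at 6 days. In A375 they were 1320 and 1470 CPM in 72-hour controls and 1680 and 1780 CPM after palbociclib, above the controls in both libraries, with a log2 difference of 0.31 ± 0.27 (adjusted p = 0.505). The 6-day A375 controls were far apart, at 545 and 1130 CPM, with the treated libraries at 1040 and 1260 CPM (0.46 ± 0.27, adjusted p = 0.186). Without control replicate 2, LMNA was called higher at 6 days (1.08, adjusted p = 0.000737), and after GC correction its value was -0.05 (adjusted p = 0.87).

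The balance of the lamins followed these values. As a share of the summed CPM per kb of exon, LMNB1 made up 24.6% and 25.6% of lamin mRNA in the 72-hour A375 controls and 5.93% and 6.19% after 72 hours of palbociclib, while LMNA went from 58% and 55.8% to 81.8% and 81.3%. At 6 days the LMNB1 share was 45.4% and 27.6% in controls and 9.38% and 7.37% in treated cells. CHL1 carried a larger share of LMNB1, 46.1% and 49.6% in controls, 43.7% and 46.5% at 72 hours, and 40.7% and 29.6% at 6 days. The A375 groups were thus apart at both times, whereas in CHL1 the 72-hour shares overlapped the control range and the 6-day shares lay below it.

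Both LBR and TMPO fell in A375 at both times. LBR (chr1:225589204-225616627, minus strand), the lamin B receptor and also a sterol reductase, dropped from 165 and 197 CPM to 90.5 and 79.1 CPM at 72 hours in A375 (-1.09 ± 0.18, adjusted p = 0.00103). At 6 days it dropped from 233 and 195 CPM to 61.2 and 53.6 CPM (-1.90 ± 0.19, adjusted p = 5.37e-06), with a value of -1.14 after GC correction (adjusted p = 0.000189). In CHL1 its controls had 248 and 210 CPM, the 72-hour libraries 163 and 173 CPM and the 6-day libraries 244 and 140 CPM, and the last overlapped the controls (-0.25 ± 0.23, adjusted p = 0.5). That value was 0.09 without 6-day replicate 2 and was called lower without replicate 1 (-0.71, adjusted p = 0.0342).

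TMPO (chr12:98909357-98944129, plus strand), whose LAP2 proteins bind lamins and chromatin, fell in A375 from 237 and 296 CPM to 79.7 and 79.3 CPM at 72 hours (-1.75 ± 0.20, adjusted p = 4.98e-05). At 6 days it fell from 589 and 447 CPM to 100 and 86.8 CPM (-2.47 ± 0.20, adjusted p = 2.45e-06), with a value of -2.01 after GC correction (adjusted p = 1.4e-05). In CHL1 it had 381 and 332 CPM in controls, 174 and 199 CPM at 72 hours (-0.93 ± 0.27, adjusted p = 0.0717) and 293 and 138 CPM at 6 days (-0.73 ± 0.27, adjusted p = 0.0887). All 4 treated CHL1 libraries were below both controls. Neither time was called by edgeR, whereas DESeq2 (adjusted p = 0.0158 and 0.0385) and the GC-corrected edgeR fit (0.0379 and 0.0462) called TMPO lower at both. Reads of its antisense gene TMPO-AS1 in the table came to 1.11% of those of TMPO, and whether the libraries kept strand is not given in the sources used here.

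HMGB1 (chr13:31030841-31191734, minus strand), the most abundant HMGB protein and an alarmin when released, fell under palbociclib in all 4 comparisons. In CHL1 it went from 445 and 363 CPM to 240 and 243 CPM at 72 hours (-0.74 ± 0.17, adjusted p = 0.032) and to 297 and 229 CPM at 6 days (-0.62 ± 0.17, adjusted p = 0.0298). In A375 it went from 205 and 284 CPM to 109 and 122 CPM at 72 hours (-1.08 ± 0.23, adjusted p = 0.00559). At 6 days the controls had 766 and 529 CPM and the treated libraries 192 and 145 CPM (-1.95 ± 0.23, adjusted p = 2.6e-05). Treated and control libraries did not overlap at any time. The CHL1 calls of HMGB1 were lost without any 1 library at 72 hours (adjusted p from 0.13 to 0.272) and without either control or treated replicate 2 at 6 days (0.0852 to 0.253), and the 72-hour A375 call without control replicate 2 (0.121) or treated replicate 1 (0.092). The 6-day A375 fall was less steep after GC correction (-1.16, adjusted p = 0.000909) and was not called against the 72-hour A375 control (-0.54, adjusted p = 0.0832). The annotation lists 48 HMGB1 pseudogenes, of which 2 were in the table with 0.952% of the reads of HMGB1, so some of its reads may have been placed elsewhere.

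HMGB3 (chrX:150148982-150159244, plus strand), an HMG-box protein of immature and dividing cells, stood in CHL1 at 91.4 and 89.1 CPM in controls, 86.5 and 87.0 CPM at 72 hours and 85.7 and 69.2 CPM at 6 days. Neither time was called (-0.06 and -0.22, adjusted p = 0.951 and 0.539). In A375 it fell from 34.5 and 43.2 CPM to 16.5 and 17.3 CPM at 72 hours (-1.20 ± 0.20, adjusted p = 0.000972), and from 24.6 and 27.7 CPM to 14.5 and 11.8 CPM at 6 days (-0.99 ± 0.20, adjusted p = 0.00105), or -0.81 after GC correction (adjusted p = 0.00452). Within the HMGB family, the HMGB2 share of the summed CPM per kb fell from 35.9% and 32.9% in CHL1 controls to 25.6% and 23.7% at 72 hours and 25.9% and 25.3% at 6 days. In A375 it fell from 38.8% and 39% to 22.8% and 26.1% at 72 hours and from 22.8% and 26% to 14.1% and 14.3% at 6 days. HMGB2 had the steepest fall of the 3 HMGB genes in all 4 palbociclib comparisons.

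**Figure D2:**
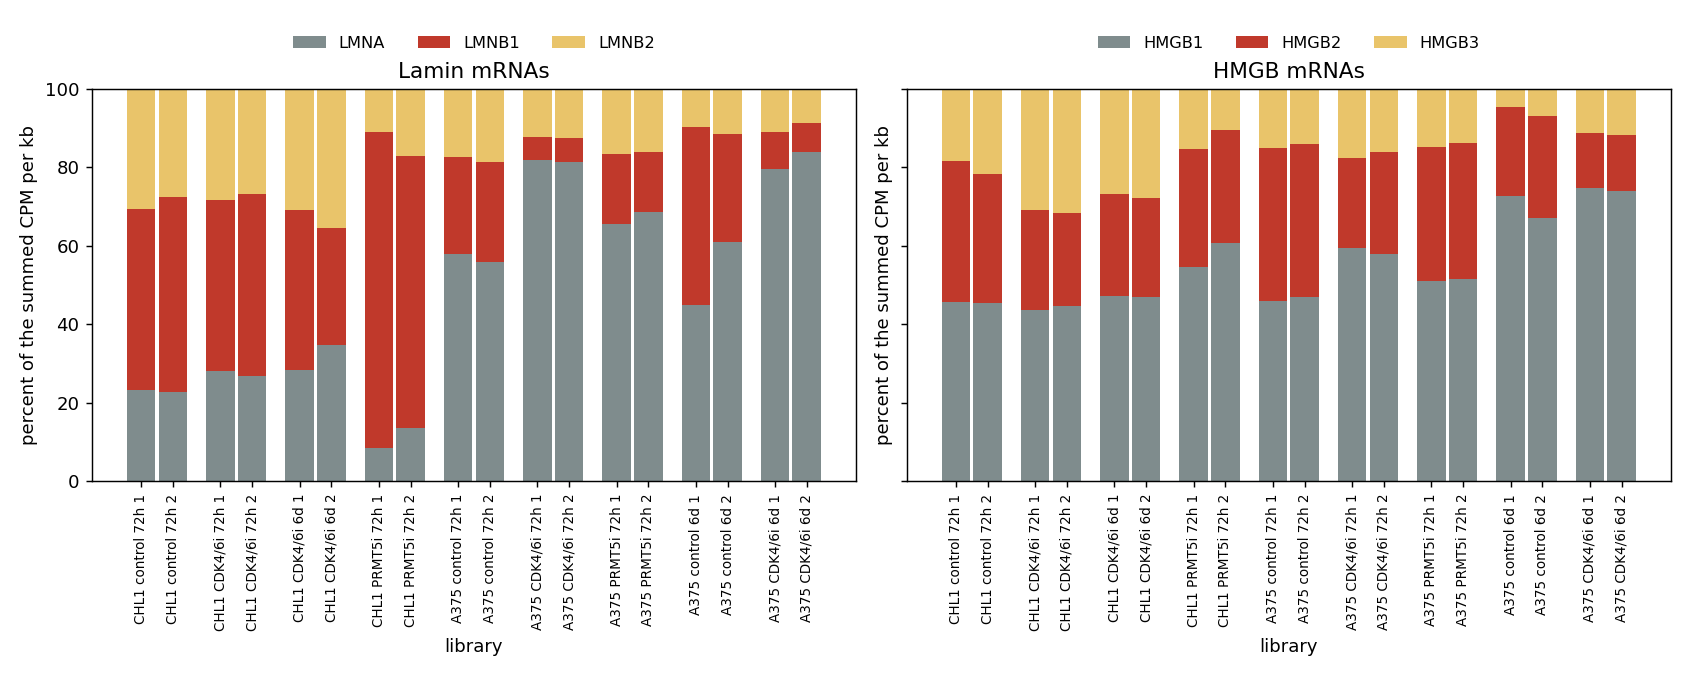
Shares of LMNA, LMNB1 and LMNB2 (left) and of HMGB1, HMGB2 and HMGB3 (right) in the summed CPM per kb of each family, in percent, as stacked bars for each of the 18 libraries. The LMNB1 part shrinks from 24.6% and 25.6% to 5.93% and 6.19% in A375 after 72 hours of CDK4/6i and is 80.5% and 69.4% in CHL1 after PRMT5i, in the libraries with the GC trend, with no correction for it.

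The HMGA genes stood at different levels in the lines. HMGA1 (chr6:34204650-34214008, plus strand), an architectural protein that binds AT-rich DNA, had 192 and 160 CPM in CHL1 controls and 109 and 96.3 CPM at 72 hours (-0.78 ± 0.21, adjusted p = 0.0561, not called), and fell to 97.2 and 91.2 CPM at 6 days (-0.90 ± 0.21, adjusted p = 0.0142), a call that was lost without any 1 library (adjusted p from 0.0516 to 0.123). In A375 it had 686 and 838 CPM in 72-hour controls and 580 and 628 CPM after palbociclib (-0.34, adjusted p = 0.359). At 6 days it had 278 and 405 CPM in controls and 249 and 225 CPM after treatment (-0.52 ± 0.22, adjusted p = 0.0688). The 6-day A375 value passed the test after GC correction (-1.08, adjusted p = 0.000734). HMGA2 (chr12:66218240-66360071, plus strand), a fetal HMGA protein, was at 0 to 3 counts in CHL1, and no fold change is given there. In A375 its levels were 667 and 566 CPM in 72-hour controls and 742 and 608 CPM after palbociclib, overlapping (0.13, adjusted p = 0.767). At 6 days the controls had 1100 and 671 CPM and the treated libraries 440 and 467 CPM (-0.97 ± 0.23, adjusted p = 0.00347), a fall that was -0.28 after GC correction (adjusted p = 0.151). The overlapping antisense gene RPSAP52 had 3.26% of the reads of HMGA2.

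Counted over the set, the edgeR test on all libraries, without a replicate block, called members lower and none higher under palbociclib. In CHL1, 2 were lower at 72 hours (HMGB1 and HMGB2), where 4.98% of all genes were called, 2.27% higher and 2.72% lower. At 6 days 4 were lower (LMNB1, HMGB1, HMGB2 and HMGA1), where 16.6% were called, 8.83% higher and 7.8% lower. In A375, 7 were lower at 72 hours (LMNB1, LMNB2, LBR, TMPO and the 3 HMGB genes), where 13.3% were called, 6.22% higher and 7.11% lower, and 7 at 6 days (LMNB1, LBR, TMPO, the 3 HMGB genes and HMGA2), where 43.1% were called, 21.8% higher and 21.3% lower. In none of the 4 comparisons did a member rise at an unadjusted p below 0.05 by edgeR, and DESeq2 and limma voom also called 0 higher. The median log2 fold change was -0.52 and -0.62 over the 9 expressed members in CHL1 and -1.09 and -1.44 over the 10 in A375, against 0.00, 0.03, 0.00 and 0.10 over all genes. In CHL1 at 72 hours, fewer members and a smaller share of all genes were called in each fit without 1 library. In the other palbociclib comparisons both moved with the library left out. At 6 days LMNB1 then ran from -1.54 to -0.76 in CHL1 and from -2.26 to -2.11 in A375. HMGB2 ran from -1.31 to -0.88 in CHL1 and from -3 to -2.62 in A375. LMNA in A375 at 6 days ran from 0.03 to 1.08 and was called higher without control replicate 2. In these bulk samples, fewer cells of a kind and less RNA per cell cannot be told apart.

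**Figure D3:**
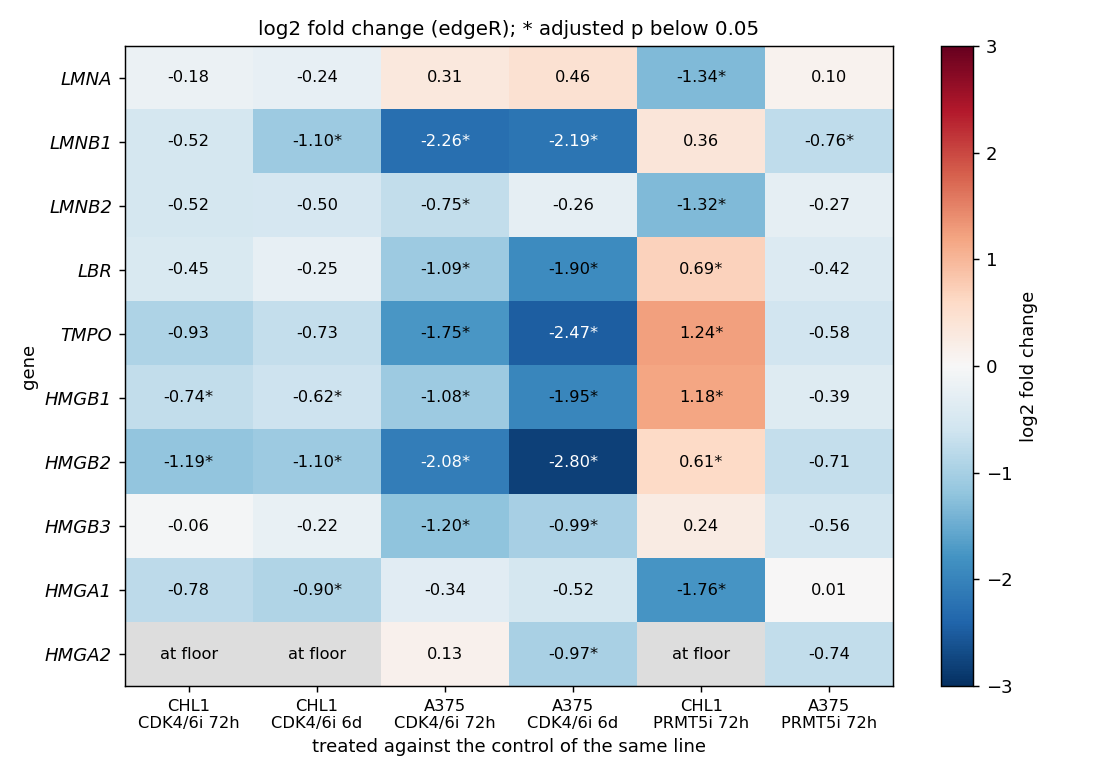
Log2 fold change of each gene (rows) in the 6 comparisons of treated with control cells of the same line (columns), as colour from -3 to 3 and as a number, with an asterisk for an adjusted p below 0.05; CHL1 HMGA2 is grey because it was at the floor. The A375 CDK4/6i columns hold 7 called falls each and no called rise, and the CHL1 PRMT5i column holds 4 called rises and 3 called falls.

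Whether the fall went on from 72 hours to 6 days was tested directly. In CHL1, with the treated groups set directly against each other, 0 of the 9 expressed members differed between the times by edgeR, with 0.0145% of all genes called. Only LMNB1 had an unadjusted p below 0.05 (-0.58 ± 0.21, adjusted p = 0.517), and DESeq2 and limma voom called 0. Without 6-day replicate 1, LMNB1 was lower at 6 days (-1.02, adjusted p = 0.0365). HMGB2 differed by 0.09 ± 0.19 (adjusted p = 0.962). In A375 the response at 6 days was set against the response at 72 hours, each with its own control, and 0 of 10 members were called, where 1.08% of genes were, 0.174% higher and 0.908% lower. LMNB1 differed by 0.08 ± 0.25 (adjusted p = 0.899) and HMGB2 by -0.72 ± 0.31 (adjusted p = 0.212). Unadjusted, 5 members (LBR, TMPO, HMGB1, HMGB2 and HMGA2) had p below 0.05, all toward a larger fall at 6 days. Their transcripts have 37.8% to 40.9% GC, and the 6-day controls in this contrast carry the GC trend. After GC correction HMGB2 differed by -0.37 (adjusted p = 0.494) and LMNB1 by -0.21 (adjusted p = 0.604). That fit called 0 members, where 1.59% of genes were called. DESeq2 called 2, both lower, where it called 5.56% of all genes, and limma voom called 0. Across the fits without 1 library, LMNB1 ran from -0.16 to 0.2 and HMGB2 from -1.06 to -0.51. The calls depended most on 6-day control replicate 2. Without it, members were called in both directions, so the lack of calls was not stable.

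The lines were compared by testing the difference between their responses. At 72 hours the LMNB1 fall was smaller in CHL1 than in A375 by 1.68 ± 0.28 on the log2 scale (adjusted p = 0.00697). LMNB1 was the only member called, where 0.642% of genes were called, 0.241% higher and 0.401% lower. At 6 days, 5 members had a smaller fall in CHL1, where 21.9% of all genes were called, 12.4% higher and 9.51% lower. They were LMNB1 (1.07 ± 0.28, adjusted p = 0.0115), LBR (1.63 ± 0.30, adjusted p = 0.00127), TMPO (1.73 ± 0.35, adjusted p = 0.00261), HMGB1 (1.32 ± 0.31, adjusted p = 0.00639) and HMGB2 (1.68 ± 0.31, adjusted p = 0.00118). At 6 days the CHL1 comparison used a 72-hour control and the A375 comparison a 6-day control with a GC trend. After GC correction HMGB1 was no longer called (0.48, adjusted p = 0.164), while LMNB1 (1.46), LBR (0.81), TMPO (1.30) and HMGB2 (1.19) were. The LMNB1 difference at 72 hours was not called without either CHL1 control, A375 control replicate 2 or A375 treated replicate 1 (range 1.52 to 1.88 without 1 library), and that at 6 days without CHL1 treated replicate 1 (0.65, adjusted p = 0.0867).

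Under PRMT5 inhibition members rose and fell in CHL1, and most of those calls were not made after GC correction. In CHL1, 4 members rose and 3 fell, where 54% of all genes were called, 26.4% higher and 27.6% lower. TMPO rose from 381 and 332 CPM to 800 and 879 CPM (1.24 ± 0.27, adjusted p = 0.00232), and HMGB1 from 445 and 363 CPM to 925 and 900 CPM (1.18 ± 0.17, adjusted p = 0.00023). LBR, at 336 and 404 CPM, rose by 0.69 ± 0.23 (adjusted p = 0.0223), and HMGB2, at 160 and 132 CPM, by 0.61 ± 0.19 (adjusted p = 0.0179). The rise of LBR was not called without either control or PRMT5i replicate 2 (adjusted p from 0.0528 to 0.149), nor that of HMGB2 without control replicate 2 (0.187) or PRMT5i replicate 1 (0.0903). LMNA fell to 109 and 190 CPM (-1.34 ± 0.22, adjusted p = 0.000434), LMNB2 to 95.2 and 159 CPM (-1.32 ± 0.22, adjusted p = 0.000419) and HMGA1 to 39.6 and 64.3 CPM (-1.76 ± 0.22, adjusted p = 0.000115). LMNB1 stood at 465 and 435 CPM, above both controls but not called (0.36 ± 0.21, adjusted p = 0.173), and HMGB3 at 133 and 80.1 CPM overlapped its controls (0.24, adjusted p = 0.375).

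The 4 members that rose have transcripts of 37.8% to 40.9% GC and the 3 that fell of 61% to 61.3% GC, in libraries where GC-rich genes were low throughout. After removing the GC trend from each library, 2 members were called in CHL1, where 34.8% of genes were called. LMNB1 (51.1% GC) was higher by 0.80 ± 0.22 (adjusted p = 0.0174) and HMGA1 lower by 0.56 ± 0.12 (log2 fold change -0.56, adjusted p = 0.00558). The corrected values of the others were -0.17 for LMNA, -0.14 for LMNB2, -0.32 for LBR, 0.53 for TMPO, 0.17 for HMGB1, -0.18 for HMGB2 and -0.16 for HMGB3, with adjusted p from 0.118 to 0.532. Fitting the same 13676 genes with a GC value without the correction left 7 members called, where 69.6% of genes were called. The direction of LBR, HMGB2 and HMGB3 under PRMT5i in CHL1 thus changed with the correction. With the correction, the palbociclib calls of LMNB1 and HMGB2 in both lines at 6 days still passed the test, at -1.09 and -1.08 in CHL1 and -2.55 and -2.28 in A375.

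**Figure D4:**
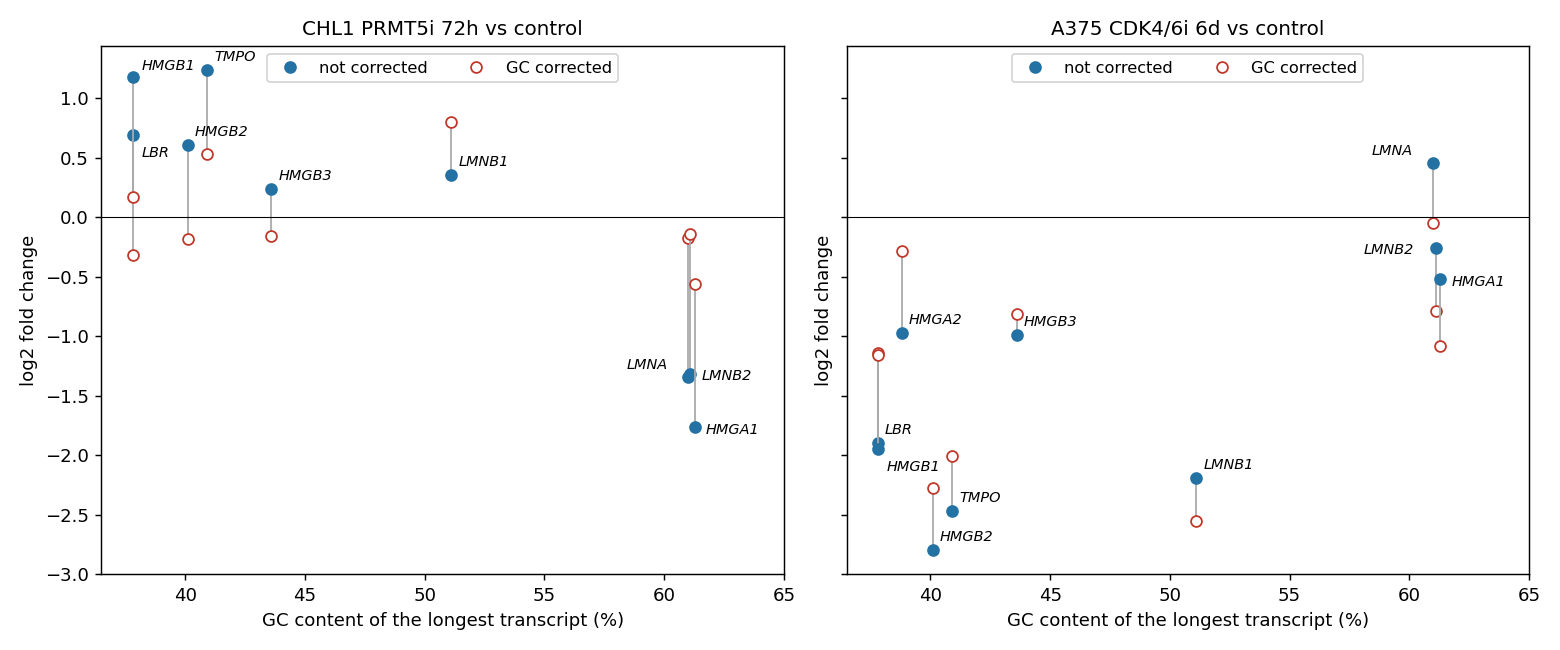
Log2 fold change of each member against the GC content of its longest transcript in percent, for CHL1 PRMT5i at 72 hours (left) and A375 CDK4/6i at 6 days (right), before (filled) and after (open) the GC trend was removed from each library, with a line joining the values of a gene. In CHL1, LMNA and LMNB2 move from -1.34 and -1.32 to -0.17 and -0.14, and in A375 LMNB1 and HMGB2 stay at or below -2.19.

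In A375 the fit without a replicate block called 1 member lower under PRMT5i, LMNB1. It called 2.61% of all genes, 0.874% higher and 1.74% lower. LMNB1 fell from 249 and 300 CPM to 155 and 169 CPM (-0.76 ± 0.18, adjusted p = 0.0314), against -2.26 under palbociclib with the same controls. HMGB2 had 36.0 and 42.1 CPM, below both controls (-0.71 ± 0.21, adjusted p = 0.0973), and HMGA2 394 and 342 CPM (-0.74 ± 0.23, adjusted p = 0.1). TMPO (177 and 180 CPM), LBR (135 and 135 CPM), HMGB1 (172 and 200 CPM) and HMGB3 (25.5 and 27.1 CPM) were also below their controls and not called by this fit. LMNB2, at 217 and 267 CPM, overlapped its controls (-0.27, adjusted p = 0.623). With a replicate block, 8 members were called lower, where 29.5% of all genes were called. No label says that the replicate numbers pair samples. LMNA and HMGA1 differed by 0.10 and 0.01. The 0 members that rose were also 0 at an unadjusted p below 0.05, by DESeq2 and by limma voom, and LMNB1 was not called without any 1 of the 4 libraries (adjusted p up to 0.304). The PRMT5i responses of the lines differed for 9 members, 6 higher and 3 lower in CHL1, where 40.9% of genes were called, 18.8% higher and 22.1% lower, and for LMNB1 (1.59, adjusted p = 0.00163) and TMPO (1.03, adjusted p = 0.0216) after GC correction.

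The order of LMNB1 levels in A375 ran from the 72-hour control (275 ± 36.0 CPM, SD, n = 2) over the 6-day control (237 ± 13.4), PRMT5i (162 ± 9.50) and 72-hour palbociclib (57.3 ± 4.32) to 6-day palbociclib (52.2 ± 3.71), and only the last neighbours overlapped. In CHL1 it ran from PRMT5i (450 ± 21.2 CPM) over control (350 ± 2.92) and 72-hour palbociclib (244 ± 4.63) to 6-day palbociclib (164 ± 60.8), with no overlap between neighbours. For HMGB2 the A375 order was 6-day control (69.5 ± 7.78), 72-hour control (63.7 ± 13.8), PRMT5i (39.1 ± 4.31), 72-hour (15.1 ± 2.94) and 6-day palbociclib (10.0 ± 1.83), and the controls overlapped. Per kb of exon, LMNA was the most abundant lamin in A375 at 72 hours (171 ± 12.9 CPM per kb in controls, against 75.6 ± 9.90 for LMNB1), and LMNB1 in CHL1 (96.4 ± 0.805, against 46.4 ± 3.63 for LMNA).

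Genes were also ranked by how closely their levels followed LMNB1 and HMGB2 over the 18 libraries, after removal of the mean of each line. The measure was Pearson's r of log2(CPM + 1) among 15672 genes, given as a description, and the libraries share treatments, depth and the GC trends above. The closest to LMNB1 included RFC4 (a clamp loader subunit, r = 0.975), STMN1 (a microtubule regulator, 0.975), GJC1 (a gap junction connexin, 0.972) and HSD17B11 (a steroid dehydrogenase, 0.967). The closest to HMGB2 were CCNA2 (cyclin A2, 0.981), PTMA (prothymosin alpha, 0.979), TOP2A (topoisomerase II alpha, 0.973), NUCKS1 (a nuclear phosphoprotein, 0.972) and RPA3 (a single-strand DNA binding subunit, 0.971).

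Genes of proliferation fell beside the members. MKI67, the gene of the Ki-67 antigen, was lower in all 6 comparisons, by -1.18 and -1.17 in CHL1 and -1.71 and -1.30 in A375 under palbociclib and by -0.53 and -0.81 under PRMT5i (log2, adjusted p from 6.18e-05 to 0.039). Of the 10, 5 and 6 were lower in CHL1 at 72 hours and 6 days and 10 and 7 in A375, with none higher. Of all genes, 2.72% and 7.8% were lower in CHL1 and 7.11% and 21.3% in A375. The median log2 fold changes of the 10 were -0.85, -0.93, -1.53 and -1.27. The largest 6-day falls were those of the cyclin gene CCNA2 in CHL1 (-1.24) and of CDK1, the mitotic kinase, in A375 (-2.60). The part of this fall in the LMNB1 and HMGB2 results was not tested.

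Markers of senescence were read beside the members. CDKN1A, the gene of the cell cycle inhibitor p21, had 17.7 ± 0.878 CPM in CHL1 controls, 22.2 ± 1.67 at 72 hours and 20.1 ± 5.31 at 6 days of palbociclib, and was not called (0.32 and 0.18, adjusted p = 0.568 and 0.696). In A375 it rose from 138 ± 4.12 to 397 ± 27.2 CPM at 72 hours (1.52, adjusted p = 0.00215), from 97.8 ± 50.2 to 244 ± 28.8 CPM at 6 days (1.32, adjusted p = 0.00155), and to 532 ± 125 CPM under PRMT5i (1.94, adjusted p = 0.00305). The difference between lines in the CDKN1A response was not called at 72 hours or 6 days (adjusted p = 0.222 and 0.0511). Of 11 listed markers in the table, 6 were higher and 1 lower at 6 days in A375 (median 0.63) and 2 higher and 1 lower in CHL1 (median 0.17), where 21.8% and 21.3% of all genes were higher and lower in A375 and 8.83% and 7.8% in CHL1. In CHL1 the largest called rise was that of IGFBP3, a growth factor binding protein, with 0 counts in both controls and 5 and 8 counts at 6 days, too few for a fold change. IGFBP7, a related secreted protein, fell in both lines (-0.89 in CHL1, -0.71 in A375). No values of CDKN2A and CDKN2B are reported here.

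Related genes were counted by list, beside 16.6% of all genes called at 6 days in CHL1 and 43.1% in A375. Of 21 lamina partners and lamin-processing genes in the table, 2 were higher and 2 lower at 6 days in CHL1 and 2 higher and 4 lower in A375, with median log2 fold changes of 0.02 and 0.14. NRM, which encodes the membrane protein nurim, fell in CHL1 (-1.37) and in A375 (-1.10), and SYNE2, a nesprin that links the nucleus to the cytoskeleton, fell most in A375 (-2.10) and also in CHL1 (-0.85). TM7SF2, a sterol reductase related to LBR, rose in CHL1 (1.30) and TMEM43, an inner nuclear membrane protein, in A375 (0.95). Of 13 other HMG-box and HMGN genes, 2 were higher and 2 lower in CHL1 and 1 higher and 5 lower in A375. HMGN2, a nucleosome binding protein, fell in both lines (-1.22 and -0.72), HMGN5 rose in CHL1 (1.09) and fell in A375 (-2.29), and HMGXB3 rose in A375 (1.03). HMGN5 had 6.44 ± 1.36 CPM in CHL1 controls and 13.7 ± 6.52 at 6 days, from 206 and 509 counts. In A375 it had 9.9 ± 3.96 CPM in the 6-day controls, which carry the GC trend, and 2.03 ± 0.134 after treatment. The 72-hour A375 controls had 1.63 ± 0.0679 CPM of HMGN5, and 72 hours of palbociclib gave 1.15 ± 0.0817. Of 17 heterochromatin genes, 1 was higher and 2 lower in CHL1 and 3 higher and 7 lower in A375, among them the histone methyltransferases EHMT1 in CHL1 (-0.64) and SUV39H1 in A375 (-1.09), the macroH2A gene H2AFY2 in CHL1 (1.62, from a mean of 0.581 CPM) and UBN1, of the HIRA complex, in A375 (0.64).

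Under PRMT5i in CHL1, 5 of the 21 lamina partners were higher and 13 lower, with a median log2 fold change of -1.05, in the libraries where GC-rich genes were low and where 26.4% of all genes were higher and 27.6% lower. Of the 13 HMG genes 6 were higher and 3 lower, of the 17 heterochromatin genes 5 and 6, of the 10 proliferation genes 2 and 3, and of the 11 senescence markers 0 and 2. In A375, PRMT5i lowered 1 lamina partner and 5 proliferation genes and raised 3 senescence markers, and 0 HMG and 0 heterochromatin genes were called by edgeR. There 0.874% of all genes were higher and 1.74% lower. At 72 hours of palbociclib, 2.27% of all genes were higher and 2.72% lower in CHL1, and 6.22% higher and 7.11% lower in A375. There 1 lamina partner was higher and 2 were lower in CHL1, and 3 were lower in A375. Of the HMG genes 2 were lower in each line, of the heterochromatin genes 3 were lower in A375 and 0 called in CHL1, and of the senescence markers 1 was higher in CHL1 and 3 in A375. The palbociclib and PRMT5i comparisons of CHL1, and those of A375 at 72 hours, share their control libraries.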

How the data were processed

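Poly-A RNA of 18 libraries was sequenced. Per the labels and methods, the authors aligned reads with HISAT2 2.0.4 to GRCh37, assigned them to genes with HTSeq at default settings, which count by strand, and left out low genes with edgeR. The deposited table is named as normalised, but its values are whole numbers whose totals differ between libraries, and they were treated as counts. Whether the libraries kept strand is not given in the sources used here. Here each line was fitted in edgeR 4.0.16 (R 4.3.3) with TMM scaling and 1 mean per group (8 CHL1 and 10 A375 libraries), treated against control, and line differences in a fit of all 18. A call is a quasi-likelihood test with Benjamini-Hochberg adjusted p below 0.05 over 20705 genes. Fold changes use a prior count of 0.125, and at most 3 counts in each library of a group is the floor. CPM uses the scaled library size of the fit of its line. Intervals and SDs cover 2 libraries only.

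GC content, exon length and positions came from a GRCh37 annotation (15208 genes matched by symbol, 1130 by an older symbol), and 13676 genes had a GC value. The correction removed a loess curve (span 0.4) of each library's log2 CPM deviation from the gene mean on GC. Promoters came from RefSeq. DESeq2 1.42.0, limma voom 3.58.1, other scalings, filters, fits and single-library omissions were alternatives. The fit was tested on simulated data.

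All 10 genes are named for each comparison of treated with control cells, and only some of them for the tests between times or lines. From each list, the called gene with the largest rise and fall at 6 days is named, with CDKN1A and MKI67. Some genes that the rule names are not reported here. The genes and lists were chosen with earlier results of these data known. SYNE2, NRM and HMGN2 are also given for the other line, a choice made after their values were seen.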

Additional observations from a re-analysis of the deposited data

Results flagged for a closer look

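Differences between the CHL1 and A375 responses that passed the edgeR test of the difference itself (log2, CHL1 minus A375) were found for LMNB1 after 72 hours of CDK4/6i (1.68), and after 6 days for LMNB1 (1.07), LBR (1.63), TMPO (1.73), HMGB1 (1.32) and HMGB2 (1.68), all with a smaller fall in CHL1. After PRMT5i they were found for LMNA (-1.47), LMNB1 (1.09), LMNB2 (-1.08), LBR (1.08), TMPO (1.78), HMGB1 (1.53), HMGB2 (1.28), HMGB3 (0.77) and HMGA1 (-1.81). The PRMT5i differences rest on the CHL1 libraries with the GC trend. With the GC correction 2 of these 9 passed the test, where 26% of genes did. Groups of 2 libraries were too small to test for a library far from the others.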

How the results depend on the processing

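The LMNB1 and HMGB2 falls at 6 days kept their direction in every alternative run: -2.55 to -2.11 and -3 to -2.28 in A375, all past the threshold, and -1.54 to -0.76 and -1.31 to -0.88 in CHL1, past it in all but the control omissions given in the report. The number of members called moved in several comparisons. CHL1 after 72 hours of CDK4/6i (2 in the reported fit) had 4 with DESeq2, 5 with GC correction, 5 with the replicate block and GC correction, 7 with only the compared groups, 0 to 1 without 1 library. A375 after 72 hours (7, all lower) had 9 with the replicate block, 1 of them higher, LMNA (0.31, adjusted p = 0.0157), and 9 with the block and GC correction, 1 of them higher, HMGA2 (0.33, adjusted p = 0.00767). The shares of all genes called were 13.3% in the reported fit, 42.3% with the block and 53.4% with the block and GC correction. In CHL1 at 6 days (4) there were 7 with GC correction, with or without the block, and 1 to 5 without 1 library. CHL1 PRMT5i (7) had 2 with GC correction, with or without the block. There 36.3% and 34.8% of genes were called, against 54% in the reported fit. GC-corrected fits hold only the 13676 genes with a GC value. A375 PRMT5i (1) had 2 with DESeq2, 3 with GC correction, 5 with only the compared groups, 8 with the replicate block, alone or with GC correction, and 0 without any 1 library. The CHL1 comparison of 6 days with 72 hours (0) had 0 to 1 without 1 library. The A375 6-day minus 72-hour response (0) had 2 with DESeq2, and its calls also depended on single libraries, most of all on 6-day control replicate 2. Without that library, members were called in both directions. The line difference at 72 hours of CDK4/6i (1) had 2 with DESeq2 or GC correction, 3 with the replicate block, alone or with GC correction, and 0 to 1 without 1 library. That of PRMT5i (9) had 2 with GC correction and 5 with the block added, where 26% and 35.4% of genes were called, against 40.9% as reported. For the line difference at 72 hours of CDK4/6i the share was 0.642% as reported and 1.78% with DESeq2. It was 3.79% with GC correction, 2.41% with the block and 8.76% with the block and GC correction. The share of all genes called moved too, also in the fits without 1 library. For CHL1 at 72 hours it was 4.98% as reported, 8.24% with DESeq2, 16% with GC correction and 20.3% with only the compared groups. At 6 days it was 16.6%, and 32.7% with GC correction. For A375 PRMT5i it was 2.61% as reported, 29.5% with the block and 38.8% with GC correction added. There DESeq2 gave 4.42%, GC correction 10.3% and only the compared groups 8.99%. The cause was not tested beyond the construction of each fit.

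Values that changed sign were as follows. With GC correction, alone and with the replicate block: HMGB3 in CHL1 at 72 hours of CDK4/6i 0.02, in CHL1 PRMT5i LBR -0.32 and -0.31, HMGB2 -0.18 and -0.17, HMGB3 -0.16 and -0.19, HMGA1 in A375 PRMT5i -0.07 and -0.08, and for the PRMT5i line difference LMNB2 0.21 and LBR -0.01 and 0. LMNA in A375 at 6 days was -0.05 with GC correction and -0.27 against the 72-hour control. LMNB1 in the A375 6-day minus 72-hour response was -0.02 with DESeq2 and with median-of-ratios scaling, -0.21 with GC correction and 0 on genes with a GC value (an alternative chosen after seeing the data). Across the fits without 1 library, LBR in CHL1 at 6 days ran from -0.71 to 0.09, HMGB3 in CHL1 PRMT5i from -0.17 to 0.56, HMGA2 in A375 at 72 hours from -0.02 to 0.27, LMNB2 in A375 at 6 days from -0.62 to 0.21, HMGA1 and LMNA in A375 PRMT5i from -0.25 to 0.23 and from -0.11 to 0.29, HMGB2 in CHL1 between times from -0.12 to 0.27, and LMNB1 in the A375 6-day minus 72-hour response from -0.16 to 0.2.

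Replicate numbers are shared by the CHL1 groups and the 72-hour A375 groups, and nothing says that they pair samples: replicate differences correlated at -0.339 to 0.448 in CHL1 and 0.216 to 0.475 in A375. No paired analysis was possible for 6-day A375 because its labels carry no replicate numbers (those used here follow accession order and only name libraries). Fits without 1 library leave a group with 1 sample, assumed to vary like the others. With 2 libraries per group, small changes are not detectable.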

Other observations

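Control levels of several members differed between the 72-hour and the 6-day A375 libraries, which come from different library sets. HMGB1 had 205 and 284 CPM in the 72-hour controls and 766 and 529 CPM in the 6-day controls, TMPO 237 and 296 against 589 and 447 CPM, and HMGA1 686 and 838 against 278 and 405 CPM. LMNB1, at 249 and 300 against 247 and 228 CPM, did not overlap either, and HMGB2, at 53.9 and 73.5 against 75 and 64 CPM, did. The ratio of LMNB1 to LMNA per kb was 0.424 and 0.458 in the 72-hour controls and 1.01 and 0.453 in the 6-day controls, so that the library with the steeper GC trend held the higher ratio. Between these controls, time, library set and GC trend cannot be told apart. The 6-day palbociclib libraries of A375 had GC trends of -0.15 and -0.18. They held 249 and 225 CPM of HMGA1, against 580 and 628 CPM after 72 hours of palbociclib. For TMPO they held 100 and 86.8 against 79.7 and 79.3 CPM, and for HMGB1 192 and 145 against 109 and 122 CPM. The part of each was not tested.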
